A study of Mus musculus with 15 samples.

Results

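Fatty acid synthesis and desaturation are followed here through 10 enzyme genes: Acly, Acaca and Fasn, which make palmitate, the elongases Elovl5 and Elovl6, the stearoyl-CoA desaturases Scd1 and Scd2, and Fads1, Fads2 and Fads3 of the front-end desaturase family. Members were found as the probe sets that the array platform's annotation assigns to these symbols alone, 27 of 45101 probe sets, and all 10 genes are among the 18193 genes measured. The set was chosen on how these genes differed between treated and DMSO arrays, so those differences are given below as a description and support nothing; where counts of genes past a threshold are given for them, they stand beside the same share over all genes and nothing is read from them. Of several probe sets of a gene, the brightest on average stands for it; the other probe sets are described further down. All values are on the log2 scale of the deposited table, on which a difference of 1 is a doubling.

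The study measured gene expression on 15 Affymetrix mouse arrays of mammospheres, spheres that mammary cells form in suspension culture. Tumour cells of the mammary gland of FVB/N mice with the genotype WAPCre-DNbcatn;HGF were dispersed, formed spheres over 7 days and were then exposed to an inhibitor or to the solvent DMSO for 24 h, and 250 ng of total RNA was labelled per array. All 5 groups, the DMSO controls included, share this strain and genotype. The Wap promoter that drives Cre is active in milk-secreting mammary epithelium, HGF is the ligand of the MET receptor, and the labels do not spell out DNbcatn. A first set (title code JAH) holds 3 DMSO, 3 PHA and 3 ICG arrays, and a second set (title code JHO) holds 3 PHA+ICG arrays and 3 DMSO arrays of its own. Per the series text, the inhibitors act on the Wnt and MET pathways; from general knowledge, PHA is a MET kinase inhibitor and ICG an inhibitor of transcription driven by β-catenin, and neither doses nor full names are given. The labels name no separate cultures, animals or pooled donors, so the p-values below describe the scatter among these arrays, which may be technical, and 3 arrays a group limit the precision. In bulk RNA, fewer cells of a type and less RNA per cell cannot be told apart.

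Cytosolic acetyl-CoA is made from citrate by ATP citrate lyase (Acly), carboxylated to malonyl-CoA by acetyl-CoA carboxylase (Acaca) and built into palmitate by fatty acid synthase (Fasn). Elongases lengthen the chain and desaturases set double bonds into it, Scd enzymes to give monounsaturated and Fads1 and Fads2 to give polyunsaturated fatty acids. Transcription of many of these genes is driven by SREBP factors, which also drive cholesterol synthesis, and in the mammary gland the pathway is known for the synthesis of milk fat.

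The arrays carried epithelial, fibroblast and leukocyte genes. Over the 15 arrays the luminal keratin gene Krt8 lay between 8.04 and 10.51 and Epcam between 8.36 and 10.37. The adipocyte genes Adipoq (3.37 to 4.65), Cidec (3.54 to 4.20) and Lep (3.50 to 4.09) and the endothelial gene Pecam1 (3.85 to 4.41) lay near the bottom of the scale, whose lowest value is 2.40. Some other markers of these cells lay higher. Of the adipocyte markers, Fabp4 lay between 9.1 and 12.84 and Cebpa between 7.93 and 10.45. Of the endothelial markers, Kdr lay between 6.13 and 7.46 and Vwf between 4.33 and 7.92. Both second-set arrays numbered 1 stood apart from the others of their set. The leukocyte gene Ptprc was at 10.04 on DMSO array 1 and 9.20 on PHA+ICG array 1, against 5.54 to 6.79 on the other 4 arrays of that set and 10.71 or higher on every first-set array. The milk gene Csn2 was at 13.01 on that DMSO array and at 7.19 and 7.00 on the other DMSO arrays of the set. The PHA+ICG differences of the 10 genes are therefore also given without this pair. The typical spread within groups was 2.22 times as large in the second set as in the first, so each set was fitted alone wherever a comparison stays within it.

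Promoter windows from RefSeq (GRCm38.p6, from 250 bases before to 50 after a start site) were held for 7 of the 10 genes, Fads2, Fads3, Fasn, Acaca, Acly, Elovl5 and Elovl6. Fads1, Scd1 and Scd2 had none. The windows of 3 genes are printed because their values carry the comparison of PHA with ICG: Fads2 and Elovl6 had the largest differences in one direction among the genes with a window, and Fads3 was the gene that differed the other way. They are Fads2 at chr19:10101454-10101753 on the minus strand, Fads3 at chr19:10041298-10041597 on the plus strand and Elovl6 at chr3:129532136-129532435 on the plus strand. Capitals mark matches, on either strand, to any of the 4 motifs searched.
Fads2: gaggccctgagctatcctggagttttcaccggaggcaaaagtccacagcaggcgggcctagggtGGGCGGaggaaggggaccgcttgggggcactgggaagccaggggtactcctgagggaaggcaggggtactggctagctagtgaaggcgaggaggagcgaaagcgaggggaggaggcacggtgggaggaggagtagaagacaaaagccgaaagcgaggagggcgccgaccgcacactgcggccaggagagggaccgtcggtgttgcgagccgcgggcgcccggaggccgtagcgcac
Elovl6: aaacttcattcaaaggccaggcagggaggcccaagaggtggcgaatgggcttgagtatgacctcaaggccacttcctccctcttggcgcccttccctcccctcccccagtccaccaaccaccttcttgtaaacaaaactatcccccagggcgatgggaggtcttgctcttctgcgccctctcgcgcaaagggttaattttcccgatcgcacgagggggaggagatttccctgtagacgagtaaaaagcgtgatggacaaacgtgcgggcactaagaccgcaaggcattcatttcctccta
Fads3: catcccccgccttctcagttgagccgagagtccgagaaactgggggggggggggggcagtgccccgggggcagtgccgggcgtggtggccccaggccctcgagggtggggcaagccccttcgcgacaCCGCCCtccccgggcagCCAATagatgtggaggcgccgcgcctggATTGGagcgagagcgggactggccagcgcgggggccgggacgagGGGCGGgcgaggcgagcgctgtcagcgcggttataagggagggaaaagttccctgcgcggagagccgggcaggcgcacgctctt
The motifs were the sterol response element TCACNCCAC, the CCAAT box, the E-box CACGTG and the GC box GGGCGG; in the windows of Fads2, Elovl6 and Fads3 no 2 matches overlap. The Fads2 window holds 1 GC box, the Elovl6 window matches none of the motifs, and the Fads3 window holds 2 CCAAT boxes and 2 GC boxes. Of 27025 promoters in the table, 37.9% hold a CCAAT box, 35.9% a GC box, 7.24% the E-box and 1.22% the sterol element. The sterol element was in 0 of the 7 windows, which says only that these letters are not there. Among the windows not printed, Fasn has 3 CCAAT boxes, of which a forward and a reverse match share letters, Acly has 1 CCAAT box and 4 GC boxes, Elovl5 has 2 CCAAT boxes and the only E-box of the 7 windows, and Acaca matches none.

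With PHA, set beside the DMSO arrays of its set, Fads2 and Scd1 lay highest above DMSO and Fads3 lay slightly below it. With ICG, Fads2, Elovl6 and Scd2 lay furthest below DMSO and Fads3 lay above it. With PHA+ICG, Fads2, Scd1 and Fads1 lay furthest below the second DMSO group, and Fads3 again lay above. The genes are described in turn, from the supply of acetyl-CoA to the desaturases, with every array's value for those that the comparisons turn on.

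**Figure D1:**
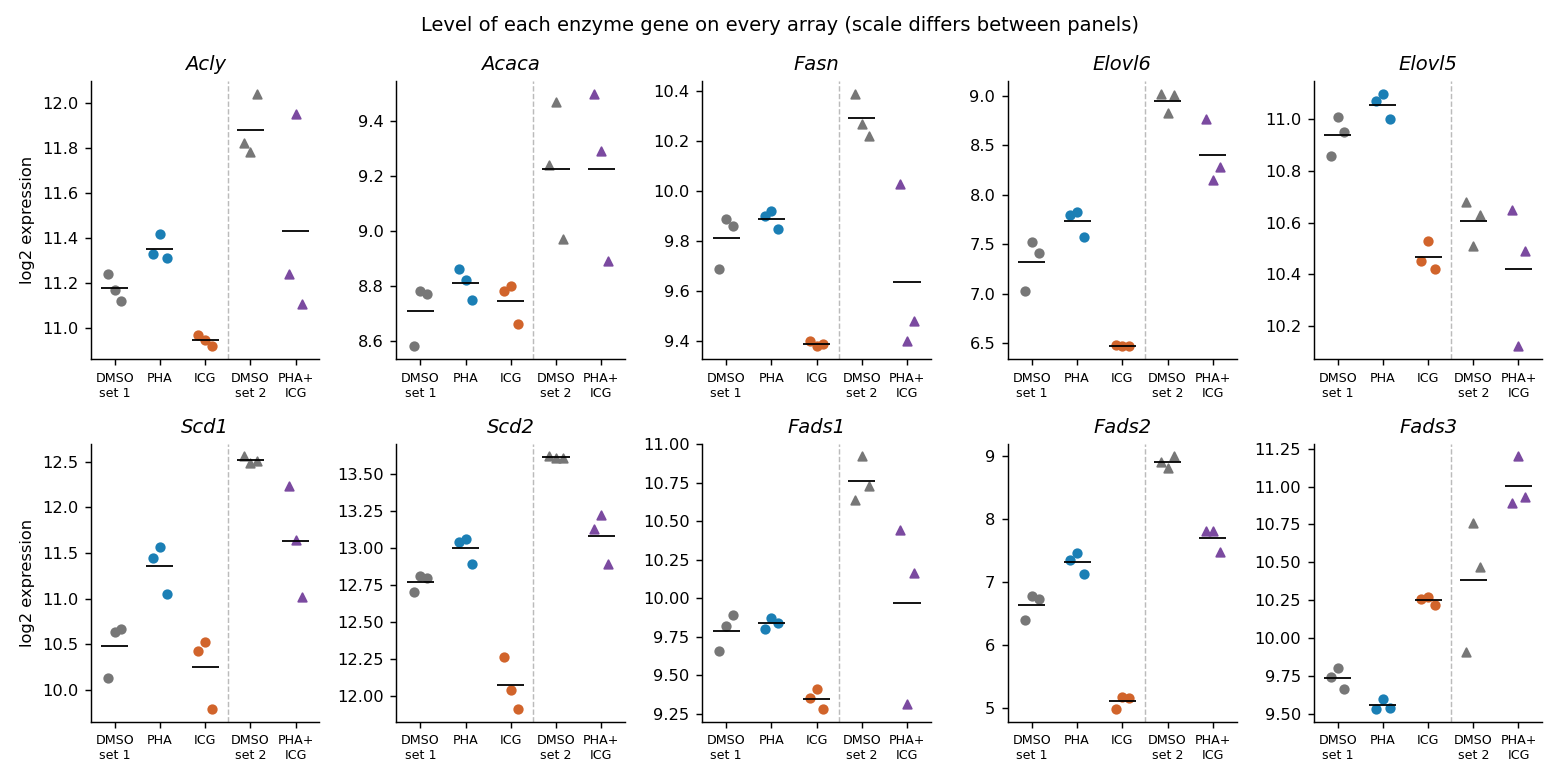
Level of each of the 10 genes (vertical axis, log2 expression, with a scale of its own in each panel) on each of the 15 arrays in the 5 groups; circles are first-set and triangles second-set arrays, and bars are group means. Fads2 runs from 4.99 on an ICG array to 9.00 on a second-set DMSO array, and most genes lie higher in the second DMSO group than in the first.

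Acly, the enzyme that splits citrate into acetyl-CoA and oxaloacetate, was abundant, between 10.92 and 12.04 over all arrays. Its means were 11.18 ± 0.06 (SD, n = 3) with DMSO, 11.35 ± 0.06 with PHA and 10.95 ± 0.03 with ICG in the first set, and neither treated group overlapped DMSO. In the second set DMSO arrays read 11.82, 11.78 and 12.04 and PHA+ICG arrays 11.24, 11.95 and 11.11, so that PHA+ICG array 2 lay among the DMSO arrays and the groups overlapped. The differences from DMSO (± SE, here and below from the limma fit) were 0.17 ± 0.06 for PHA, −0.23 ± 0.06 for ICG and −0.45 ± 0.24 for PHA+ICG. Acaca, which makes malonyl-CoA, hardly differed: −0.00 ± 0.21 with PHA+ICG, 0.10 ± 0.07 with PHA and 0.04 ± 0.07 with ICG, with overlapping groups each time.

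Fasn, the multifunctional synthase that makes palmitate, read 9.69, 9.89 and 9.86 on the DMSO arrays of the first set, 9.90, 9.92 and 9.85 with PHA, and 9.40, 9.38 and 9.39 with ICG. All ICG arrays were lower than all DMSO arrays, and PHA arrays overlapped them. Second-set values were 10.39, 10.27 and 10.22 with DMSO and 10.03, 9.40 and 9.48 with PHA+ICG. All PHA+ICG arrays were again lower, array 1 by the least. Fasn thus differed from DMSO by 0.08 ± 0.07 with PHA, −0.42 ± 0.07 with ICG (1.34-fold lower) and −0.66 ± 0.20 with PHA+ICG (1.58-fold lower), and by −0.81 ± 0.18 without both second-set arrays numbered 1.

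Elovl6, which lengthens palmitate to stearate, read 7.03, 7.52 and 7.41 with DMSO, 7.80, 7.83 and 7.57 with PHA and 6.48, 6.47 and 6.47 with ICG. The 3 groups did not overlap: PHA arrays were the highest and ICG arrays the lowest. Arrays of the second set read 9.02, 8.82 and 9.01 with DMSO and 8.76, 8.15 and 8.28 with PHA+ICG, again without overlap. The differences were 0.41 ± 0.12 with PHA, −0.85 ± 0.12 with ICG (1.80-fold lower) and −0.55 ± 0.20 with PHA+ICG. Elovl5, which elongates polyunsaturated chains, was at 10.94 ± 0.07 (SD, n = 3) with DMSO and 10.47 ± 0.06 with ICG, a difference of −0.48 ± 0.06 without overlap. It differed by 0.11 ± 0.06 with PHA and −0.18 ± 0.18 with PHA+ICG, where the groups overlapped.

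Scd1, a stearoyl-CoA desaturase that makes oleate, read 10.13, 10.63 and 10.67 with DMSO, 11.45, 11.57 and 11.05 with PHA and 10.43, 10.52 and 9.79 with ICG. All PHA arrays were above all DMSO arrays, whereas ICG arrays overlapped them and spread over more than the DMSO arrays did. The second DMSO arrays sat close together at 12.56, 12.49 and 12.51, and PHA+ICG arrays read 12.24, 11.64 and 11.02, all lower and widely spread. The differences were 0.88 ± 0.22 for PHA (1.84-fold higher), −0.23 ± 0.22 for ICG and −0.88 ± 0.28 for PHA+ICG (1.85-fold lower), and −1.17 ± 0.24 for PHA+ICG without the arrays numbered 1.

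Scd2, the related desaturase with a wide tissue range in mice, read 12.70, 12.81 and 12.80 with DMSO, 13.04, 13.06 and 12.89 with PHA and 12.26, 12.04 and 11.91 with ICG. PHA arrays lay above and ICG arrays below all DMSO arrays. Second-set arrays read 13.62, 13.61 and 13.61 with DMSO and 13.13, 13.22 and 12.89 with PHA+ICG, all lower. The differences were 0.22 ± 0.09, −0.70 ± 0.09 (1.62-fold lower) and −0.54 ± 0.16 for PHA, ICG and PHA+ICG in that order.

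Fads2, the delta-6 desaturase that takes the first step from the essential fatty acids to longer polyunsaturated ones, read 6.41, 6.78 and 6.74 with DMSO, 7.36, 7.47 and 7.13 with PHA and 4.99, 5.18 and 5.17 with ICG. Every PHA array was above and every ICG array below the DMSO arrays. In the second set it read 8.91, 8.82 and 9.00 with DMSO and 7.82, 7.81 and 7.49 with PHA+ICG, all lower than DMSO of that set. The differences were 0.68 ± 0.12 with PHA (1.60-fold higher), −1.53 ± 0.12 with ICG (2.88-fold lower) and −1.21 ± 0.16 with PHA+ICG (2.31-fold lower). Without the arrays numbered 1 the last was −1.26 ± 0.20.

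Fads1, the delta-5 desaturase that acts after Fads2, was at 9.79 ± 0.12 (SD, n = 3) with DMSO, 9.83 ± 0.03 with PHA and 9.35 ± 0.07 with ICG. ICG arrays did not overlap DMSO and PHA arrays did. The DMSO arrays of the second set lay between 10.64 and 10.92, and PHA+ICG arrays read 10.44, 9.31 and 10.16, so that array 2 sets much of the difference of −0.79 ± 0.28. Without the arrays numbered 1 that difference was −1.09 ± 0.28. With ICG Fads1 differed by −0.44 ± 0.07.

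Fads3, the family's least characterised member, went the other way. It read 9.74, 9.80 and 9.66 with DMSO, 9.53, 9.60 and 9.54 with PHA and 10.26, 10.27 and 10.22 with ICG, so that PHA arrays lay below and ICG arrays above DMSO. The second set read 9.91, 10.76 and 10.47 with DMSO and 10.89, 11.20 and 10.93 with PHA+ICG, all higher. The differences were −0.18 ± 0.06 with PHA, 0.51 ± 0.06 with ICG (1.43-fold higher) and 0.62 ± 0.23 with PHA+ICG, and 0.44 ± 0.21 for PHA+ICG without the arrays numbered 1.

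**Figure D2:**
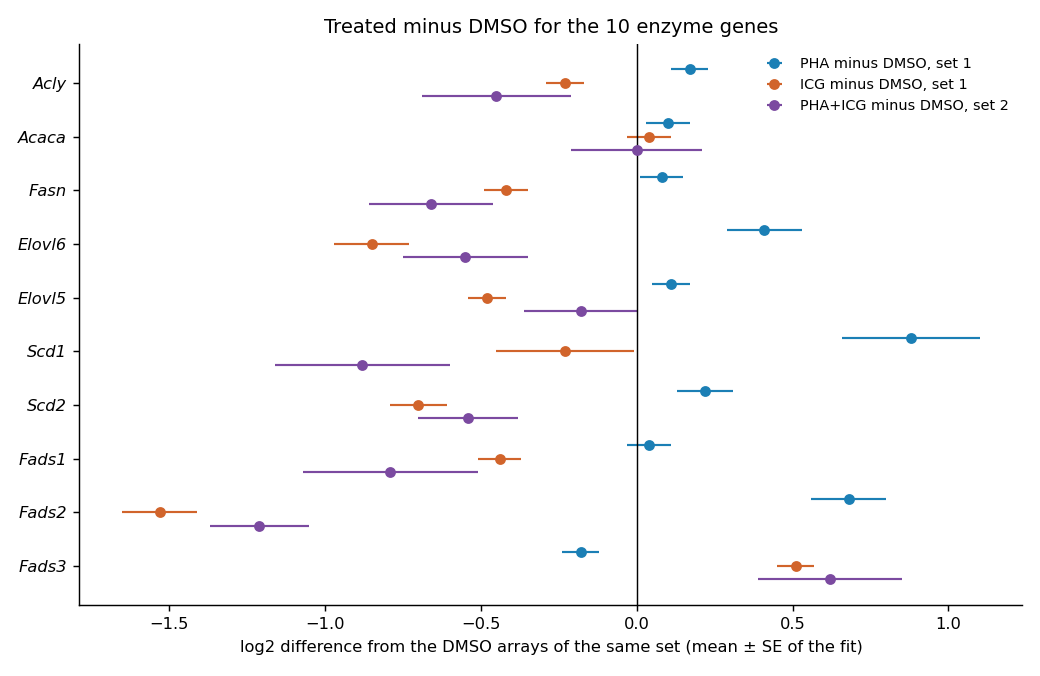
Difference between treated and DMSO arrays of the same set (horizontal axis, log2, with its SE as bars, n = 3 arrays a group) for each of the 10 genes and each of the 3 treatments. Fads2 lies at 0.68 for PHA, −1.53 for ICG and −1.21 for PHA+ICG, Fads3 at −0.18, 0.51 and 0.62, and Acaca close to 0 with all 3.

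The counts over the 10 genes are given beside those over all genes, and nothing is read from them, because the genes were selected on these contrasts. At a limma adjusted p under 0.05 over all genes, 2 of 10 were higher and 0 lower with PHA, where 3.14% of all genes were higher and 7.07% lower. With ICG 1 was higher and 7 were lower, where 11.9% and 15% of all genes were. With PHA+ICG 0 were higher and 1 (Fads2) lower, where 0.478% and 1.54% of all genes were. Treated and DMSO arrays did not overlap for 6 (PHA), 8 (ICG) and 7 (PHA+ICG) of the genes, where 31.6%, 40.6% and 18.3% of all genes did not. The median difference over the 10 genes was 0.14 for PHA, −0.43 for ICG and −0.54 for PHA+ICG, and that of all genes 0.02, 0.03 and 0.00. In the second set the arrays numbered 1 deviated together. Those numbered 2 and 3 correlated across numbers as well, so pairing by number is not shown for them. With replicate number as a block PHA+ICG called 3 of the 10, Fads2, Scd1 (−0.88 ± 0.21) and Fasn (−0.66 ± 0.17). The same 3 were called without the pair numbered 1. PHA called Scd1 in no fit that left out DMSO array 1 or 2 or PHA array 1 or 2, and PHA+ICG did not call Fads2 without DMSO array 2 (−1.26), DMSO array 3 (−1.16) or PHA+ICG array 3 (−1.10).

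The gene markers of other cells also differed in these comparisons. With ICG 10 of 12 fibroblast markers fell (median −1.39) and 8 of 12 leukocyte markers fell (median −0.61), while Ptprc was at −0.05 ± 0.06. With PHA 7 of 12 fibroblast markers fell (median −0.65), as did 2 of 12 leukocyte markers. With PHA+ICG 1 of 12 fibroblast markers, Col1a1, fell (−1.95 ± 0.21, limma adjusted p = 0.00745). The summed linear level of the 12 fibroblast markers ranged from 49685 to 62744 with DMSO, 43350 to 44053 with PHA and 38843 to 45180 with ICG, and in the second set from 118083 to 131086 with DMSO and 91065 to 107108 with PHA+ICG. That of the 12 leukocyte markers ranged from 50600 to 57604, 47204 to 50978 and 46229 to 47827 in the first set, and from 11130 to 40874 and 8459 to 31131 in the second. The 10 luminal markers summed to 3212 to 3332, 3553 to 3614 and 2914 to 3159 in the first set and to 4497 to 6102 and 2141 to 5652 in the second. Of the luminal markers 2 rose and 2 fell with PHA and 2 rose and 3 fell with ICG, Krt8 (−0.34 ± 0.07) and Epcam (−0.40 ± 0.07) among the latter. Of 9 basal epithelial markers, 4 fell with PHA, the largest difference being that of the keratin gene Krt17 (−1.62 ± 0.13), and 3 fell with ICG (Krt5, Krt14 and Acta2, by 0.38, 0.35 and 0.60). Their sum ranged from 3063 to 3734 with DMSO, 1850 to 2043 with PHA and 2561 to 3136 with ICG, and in the second set from 1240 to 1977 with DMSO and 652 to 1020 with PHA+ICG, where the groups did not overlap although 0 of the 9 passed by limma (2 had an unadjusted p under 0.05).

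Of 10 milk and secretory genes, Csn3 rose with ICG (1.58 ± 0.20, limma adjusted p = 0.00031) and Mfge8 fell with PHA and ICG, by 0.39 and 0.24. With PHA+ICG 0 of the 10 passed by limma (1 had an unadjusted p under 0.05), and Csn2 was at −4.33 ± 1.55 (limma adjusted p = 0.247). Of the 9 adipocyte markers, Adipoq, Cidec and Lep lay near the bottom of the scale on every array and Fabp4 reached the highest level, as given above. Their summed linear level ranged from 8371 to 8598 with DMSO, 6880 to 7211 with PHA and 3884 to 4630 with ICG. In the second set it ranged from 3625 to 5415 with DMSO and 1178 to 1770 with PHA+ICG. Fabp4 weighs most in this linear sum, so the sum does not describe the adipocyte markers as a group. With ICG 2 of the 9 rose, Adipoq (0.31 ± 0.08) and the transcription factor gene Cebpa (0.38 ± 0.09), and 1 fell, Fabp4, also a gene of macrophages (−1.45 ± 0.12). With PHA+ICG Fabp4 fell (−2.35 ± 0.28), and with PHA 0 of the 9 passed by limma (3 had an unadjusted p under 0.05). The part of these cells in the enzyme differences was not tested.

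PHA and ICG were next compared with each other directly. This contrast leaves out the DMSO arrays but uses the same treated arrays as the choice of genes, and it is the difference between the 2 contrasts that chose them, so the values are a description, given without p-values, and support nothing. At a limma adjusted p under 0.05 over all genes, 8 of the 10 were higher with PHA than with ICG and 1 (Fads3) was lower, where 13.7% and 13.4% of all genes were. Fads2 was 4.61-fold higher with PHA (2.20 ± 0.12 on the log2 scale), Elovl6 2.39-fold (1.26 ± 0.12) and Scd1 2.16-fold (1.11 ± 0.22). The other Fads2 probe sets differed by less, with means of 6.57 and 6.15 with PHA and, in the same order, 5.78 and 5.1 with ICG. Scd2 was 1.89-fold higher (0.92 ± 0.09). Elovl5 (0.59), Fasn (0.50), Fads1 (0.49) and Acly (0.40) differed by less. Fads3 was 1.61-fold lower with PHA (−0.69 ± 0.06). Acaca differed by 0.06 with a 95% interval of −0.10 to 0.22. The calls of Fads1 and Acly were lost with 1 spread pooled over all 15 arrays, and that of Fads1 also with the mean of its probe sets (0.22 ± 0.08).

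Whether PHA+ICG acted on these genes as either inhibitor alone did was asked across the sets, as the difference between each treatment's difference from its own DMSO arrays. These are differences between the contrasts that chose the genes, so they too are a description, given without p-values, and support nothing. PHA+ICG was given only in the second set and each inhibitor alone only in the first. A difference between their effects therefore cannot be told apart from a difference between the sets. The PHA+ICG effect minus the PHA effect was furthest below 0 for Fads2 (−1.89 ± 0.27). At a limma adjusted p under 0.05 it was the 1 gene of 10 called, where 1.08% of all genes were higher and 1.66% lower. Scd1 was at −1.76 with a 95% interval of −2.83 to −0.69, Elovl6 at −0.96 (−1.57 to −0.35), Fasn at −0.74 (−1.16 to −0.32) and Fads3 at 0.80 (0.35 to 1.25). Scd2, Fads1 and Acly were at −0.76, −0.84 and −0.62, Elovl5 at −0.30 and Acaca at −0.10. With replicate number as a block, 6 were called (Fads2, Fads3, Scd1, Scd2, Fasn and Elovl6), 4 without the pair numbered 1 (Fads1, Fads2, Scd1 and Fasn), and 4 with each set's own spread (Fads2, Scd1, Scd2 and Elovl6).

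Against the ICG effect, 0 of the 10 PHA+ICG effects were called by limma, 0 had an unadjusted p under 0.05, and 0.121% of all genes were higher and 0.264% lower. That does not show that both treatments act alike, since the intervals are wide. The difference was 0.32 for Fads2 (95% interval −0.26 to 0.89), −0.65 for Scd1 (−1.73 to 0.42), −0.35 for Fads1 (−0.90 to 0.20), −0.24 for Fasn (−0.66 to 0.18) and 0.30 for Elovl6 (−0.31 to 0.91). The PHA+ICG effect was also set against the sum of the PHA and ICG effects on the log2 scale. This too runs across the sets, so a departure from the sum cannot be told apart from a difference between the sets. In that comparison limma called 0 of 10 and 1 had an unadjusted p under 0.05, and 0.478% of all genes were above and 0.242% below the sum. Scd1 lay furthest from it, by −1.53 (95% interval −2.75 to −0.32), and Scd2 closest, by −0.06 (−0.59 to 0.47).

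Levels also differed between the DMSO groups. These arrays are the controls of the contrasts that chose the genes, so this comparison is not independent of the choice either and is given without p-values. At a limma adjusted p under 0.05, of the 10 genes, 9 were higher with DMSO in the second set than in the first and 0 were lower, where 11.8% of all genes were higher and 11.8% lower. Fads2 was 4.83-fold higher (2.27 ± 0.19), Scd1 4.12-fold (2.04 ± 0.36) and Elovl6 3.08-fold (1.62 ± 0.20). Fads1 differed by 0.98, Scd2 by 0.84, Acly by 0.70, Fads3 by 0.65, Acaca by 0.51 and Fasn by 0.49. On its other probe sets Scd2 differed by more, 2.38 and 1.71, and Fads2 by less, 2.0 and 1.41. Elovl5 went the other way, at −0.34 ± 0.13, and was called lower with replicate number as a block and with quantile normalization. The calls of Fasn, Fads3 and Acaca were lost when single DMSO arrays of the second set were left out, and the same 9 genes were called without the pair numbered 1. Beside this, 9 of 12 leukocyte markers were lower in the second set (median −2.52). Of 12 fibroblast markers 8 were higher (median 1.40), while Thy1 was lower (−1.61). Of the 10 milk and secretory genes, Csn1s1, Csn2 and Csn3 were higher, by 3.73, 3.21 and 5.90. The rest of the 10 were not called, Mfge8 (−0.02) and Wap (0.57) among them. Set, culture and cell makeup cannot be told apart here, so a level in one set is not comparable with a level in the other.

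The rest of the lipid pathway was read through 5 lists of genes, here with tests. The lists were drawn up with earlier results of these data known, so their counts are not independent evidence of a direction and are to be read beside the shares of all genes, 3.14% higher and 7.07% lower with PHA, 11.9% and 15% with ICG, and 0.478% and 1.54% with PHA+ICG. With 1 spread pooled over all 15 arrays the counts of every list fell with PHA and with ICG, for PHA to 0 in the synthesis, regulator and oxidation lists. For PHA+ICG the shares of all genes are those of the main fit, which called 368 genes. The block called 1442 genes and the fit without the pair numbered 1 called 886. Of 27 other genes of fatty acid synthesis and elongation, 5 (18.5%) rose and 1 (3.7%) fell with PHA, and 3 (11.1%) rose and 8 (29.6%) fell with ICG; the share that rose with ICG was close to that of all genes. Acss2, which makes cytosolic acetyl-CoA from acetate, rose with PHA (0.78 ± 0.07, limma adjusted p = 0.000208) and with ICG (0.53 ± 0.07, adjusted p = 0.000498) but was at −1.06 ± 0.28 with PHA+ICG (adjusted p = 0.118; −1.30 ± 0.21 and 0.0099 without the pair numbered 1). Its departure from the sum of both effects was −2.37 ± 0.30 (limma adjusted p = 0.00199). That fit runs across the sets and on simulated data made more false calls than its threshold allows. Acss2 was also higher in the second DMSO group than in the first, by 2.15 ± 0.18, so set and combined treatment cannot be told apart. Hacd2, a dehydratase of the elongation cycle, rose with PHA (0.44 ± 0.07, limma adjusted p = 0.00296) and fell with ICG (−0.69 ± 0.07, adjusted p = 7.98e-05). Tecr, the reductase that closes that cycle, fell with ICG (−0.53 ± 0.07, limma adjusted p = 0.000271). The citrate carrier gene Slc25a1, which brings citrate to Acly, rose with PHA (0.38 ± 0.07, limma adjusted p = 0.00654), fell with ICG (−0.34 ± 0.07, adjusted p = 0.00411) and was at −0.54 ± 0.17 with PHA+ICG (adjusted p = 0.175). Acss1, the mitochondrial counterpart of Acss2, fell with both, by −0.62 ± 0.06 and −0.68 ± 0.06. With PHA+ICG 1 of the 27 passed, Hacd4 (−1.67 ± 0.28, limma adjusted p = 0.0257), and its call was lost in 5 of the 6 fits that each leave out 1 array; 3 passed with the block and 3 without the pair numbered 1. Acacb was at 0.17 ± 0.11, 0.29 ± 0.11 and −0.08 ± 0.17 with PHA, ICG and PHA+ICG, and Me1 at 0.01 ± 0.07, −0.11 ± 0.07 and 0.03 ± 0.23.

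Among 18 sterol pathway genes, which SREBP2 drives, 7 rose and 0 fell with PHA (median 0.23), 0 rose and 11 fell with ICG (median −0.30) and 0 rose and 10 fell with PHA+ICG (median −1.07). Idi1, an isomerase early in the pathway, was at 0.69 ± 0.10, −1.08 ± 0.10 and −1.58 ± 0.16 (limma adjusted p = 0.00227, 5.78e-05 and 0.00672). Fdps, which makes farnesyl diphosphate, fell with ICG (−1.21 ± 0.11, limma adjusted p = 6.2e-05) and PHA+ICG (−1.94 ± 0.22, adjusted p = 0.00745). Squalene epoxidase, Sqle, rose with PHA (0.67 ± 0.10, limma adjusted p = 0.00314). The sterol reductase gene Tm7sf2 rose with PHA (0.80 ± 0.13, limma adjusted p = 0.00491), fell with ICG (−0.59) and fell with PHA+ICG (−1.75 ± 0.20, adjusted p = 0.00791). In the second DMSO group 16 of the 18 were higher than in the first (median 1.63). The PHA count was 4 without PHA array 2. The PHA+ICG count was 15 with the block and 11 without the pair numbered 1, and it was 3 without DMSO array 3, 4 without DMSO array 2 and 5 without PHA+ICG array 3.

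**Figure D3:**
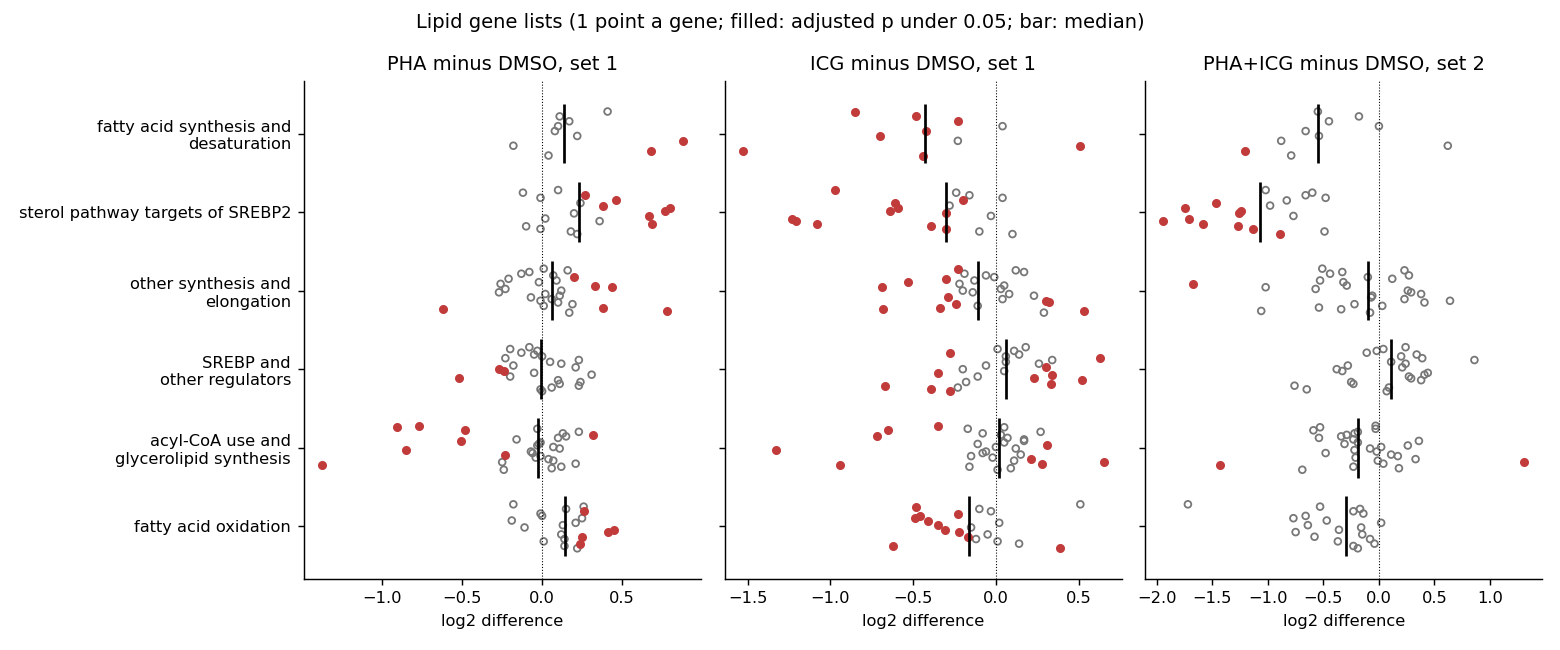
Difference from DMSO of the same set (horizontal axis, log2) for every gene of 6 lists under PHA, ICG and PHA+ICG; each point is a gene, filled where its limma adjusted p over all genes was under 0.05, and bars are list medians. The sterol list has medians of 0.23, −0.30 and −1.07, and the 10 enzymes, which were chosen on these contrasts, 0.14, −0.43 and −0.54.

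Of 25 regulators, 0 rose and 3 (12%) fell with PHA, 6 (24%) rose and 5 (20%) fell with ICG, and 0 passed with PHA+ICG by limma, where 3 had an unadjusted p under 0.05 and 3 passed with the block. The PHA count was 1 in 5 of the 6 fits that each leave out 1 array, those without DMSO array 2 or 3 or any PHA array. Srebf1, which encodes SREBP1, was at −0.00 ± 0.07 with PHA and fell with ICG (−0.28 ± 0.07, limma adjusted p = 0.0128). Srebf2 was at −0.01 ± 0.06 with PHA and fell with ICG (−0.39 ± 0.06, limma adjusted p = 0.00147). Insig1, an SREBP target whose product holds SREBP back, fell with ICG (−0.67 ± 0.07, limma adjusted p = 0.000159) and was at 0.23 ± 0.07 with PHA and −0.76 ± 0.15 with PHA+ICG (adjusted p = 0.0881 and 0.0501). Mid1ip1, which activates acetyl-CoA carboxylase, fell with PHA (−0.52 ± 0.06, limma adjusted p = 0.000732) and rose with ICG (0.23 ± 0.06, adjusted p = 0.0182). Mlxipl, the carbohydrate-responsive factor, rose with ICG (0.34 ± 0.10, limma adjusted p = 0.0322). The LXR gene Nr1h3 was at −0.24 ± 0.06 with PHA (limma adjusted p = 0.032) and at 0.05 ± 0.06 with ICG, and its PHA call was lost in each fit that left out an array. Thrsp was at −0.20 ± 0.08 and −0.11 ± 0.08. In the second DMSO group Insig1 was higher than in the first by 2.07 ± 0.13 and Srebf2 by 0.96 ± 0.13.

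Genes that use or break down fatty acids differed as well. Of 20 oxidation genes, 5 (25%) rose and 0 fell with PHA and 1 (5%) rose and 10 (50%) fell with ICG. The PHA count was 2 without DMSO array 2, PHA array 1 or PHA array 2 and 3 without DMSO array 3 or PHA array 3. Hadh rose with PHA (0.45 ± 0.06, limma adjusted p = 0.00113), and Decr1, which handles unsaturated chains, and Etfa fell with ICG (−0.48 ± 0.07 and −0.46 ± 0.06, adjusted p = 0.000939 and 0.000471). Cpt1a, the gatekeeper of mitochondrial import, rose with ICG (0.39 ± 0.09, limma adjusted p = 0.0116). With PHA+ICG 0 of the 20 passed by limma and 7 had an unadjusted p under 0.05; 3 passed with the block and 4 without the pair numbered 1. Of 30 genes of acyl-CoA use and glycerolipid synthesis, 1 (3.33%) rose and 7 (23.3%) fell with PHA, and 4 (13.3%) rose and 5 (16.7%) fell with ICG, the latter shares close to those of all genes. Acsl6, a long-chain acyl-CoA synthetase, fell with PHA (−1.38 ± 0.13, limma adjusted p = 0.000208), ICG (−0.94 ± 0.13, adjusted p = 0.000496) and PHA+ICG (−1.43 ± 0.27, adjusted p = 0.0393). Gpat3, a glycerol phosphate acyltransferase, rose with ICG (0.65 ± 0.10, limma adjusted p = 0.000808) and PHA+ICG (1.31 ± 0.26, adjusted p = 0.0493). Leaving out single arrays lost the PHA+ICG call of Acsl6 in 5 of 6 fits and that of Gpat3 in all 6. The fatty acid transporter gene Cd36 and the lipase gene Lpl fell with PHA (−0.91 ± 0.13 and −0.77 ± 0.09, limma adjusted p = 0.00202 and 0.000788). Cd36, which macrophages also express, was much lower in the second DMSO group than in the first (−5.25 ± 0.31 on the log2 scale).

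Other probe sets of the same genes mostly differed the same way but not by the same amount. For Fads2 the ICG difference was −1.53 on the probe set used and −0.48 and −0.49 on the other 2, and the PHA+ICG difference was −1.21, −1.01 and −0.59. Its PHA difference was 0.68, 0.31 and 0.56 in the same order. For Scd1 the second probe set gave 0.59 for PHA, −0.42 for ICG and −1.09 for PHA+ICG. The other Scd2 probe sets gave −1.13 and −0.67 with ICG, and −1.04 and −0.71 with PHA+ICG. For Elovl5 the PHA+ICG difference was −0.18 on the probe set used, whose probes the manufacturer marks as able to match other transcripts, and −0.60 on the other. For Fads3 the PHA+ICG difference was 0.62 on the probe set used and 0.12 and 0.10 on the others, while with ICG all 3 were above 0 (0.51, 0.44 and 0.17). The second Fads1 probe set, at a level of 5.69 with DMSO, gave 0.06, 0.10 and −0.04 with PHA, ICG and PHA+ICG. In the same order, 1 other Elovl6 probe set gave 0.59, −0.94 and −0.56. The dimmest Elovl6 probe set, at 4.9 with DMSO, gave −0.09, −0.05 and 0.12. The second Acaca probe set, at 4.57 with DMSO, gave 0.20, 0.26 and −0.01. The 3 brighter Acly probe sets lay together; the 3 dim ones, below 5, ranged from −0.06 to 0.20 with PHA, −0.07 to 0.07 with ICG and −0.07 to 0.12 with PHA+ICG. Fasn had 1 probe set, and which transcript form each probe set reads was not analysed here.

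**Figure D4:**
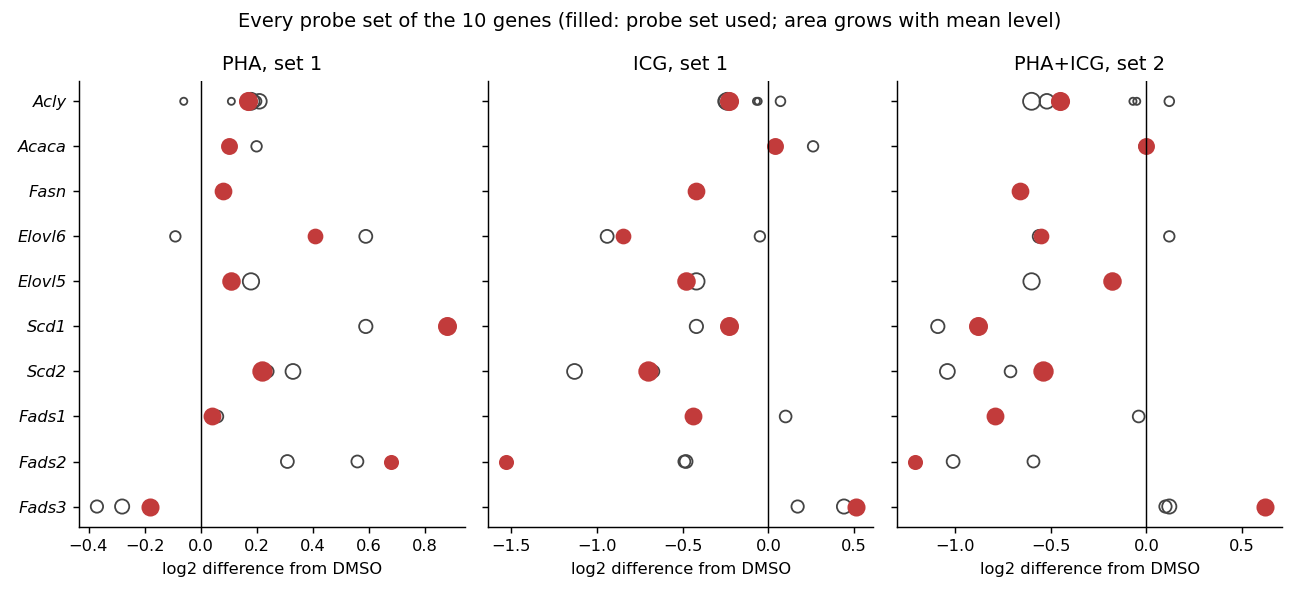
Difference from DMSO of the same set (horizontal axis, log2) on each of the 27 probe sets under PHA, ICG and PHA+ICG; filled points are the probe sets used and the area grows with the mean level. The 3 Fads2 probe sets spread from −1.53 to −0.48 with ICG.

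As a description of how the genes varied together, values were centred on the mean of each set and correlated over the 15 arrays. These arrays share groups and sets, so no p is given. Centring on the set mean leaves in the differences between treated and DMSO arrays, on which the enzyme genes were chosen. The correlations among the enzyme genes therefore largely repeat that choice and support nothing. Fads2 correlated with Scd2 at r = 0.97, Elovl6 at 0.96, Elovl5 at 0.86, Fasn at 0.84, Scd1 at 0.79, Acly at 0.72 and Fads1 at 0.69. Its r was 0.14 with Acaca and −0.83 with Fads3. Over all genes, those most like Fads2 were Scd2 (0.97), Usp48 (0.96) and Idi1 (0.96), and those most like Fasn were Rnf5 (0.98), Tubb2a (0.98) and Hadhb (0.97). Those most like Scd1 were Pon3, Tmem42 and Tlcd1, each at 0.93, and for Acaca the highest was 0.83, shared by 2610027K06Rik, Jarid2 and Snx25.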

How the data were processed

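Members and gene lists were chosen with earlier results of these data known. Values of 45101 probe sets on 15 arrays were used as the authors deposited them, on the log2 scale. The submitters' processing notes name RMA and MAS5, without versions or roles, and whether both sets were normalized together is not given in the sources used here. Controls (64) and probe sets with several symbols (932) were left out, as were 9160 with none; 34945 had 1 symbol, and 9010 genes had several probe sets, of which the one with the highest mean was used.

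limma 3.58.1 in R 4.3.3 fitted group means to each set alone (6 residual and 3.98 prior degrees of freedom in the first, 4 and 4.23 in the second). Comparisons across sets used all arrays with weights estimated per set (10 and 5.26). A call means an adjusted p (Benjamini-Hochberg, over 18193 genes) under 0.05. On simulated data the fit across sets made more false calls than this threshold allows, so a fit with each set's own spread was added; so was one without both second-set arrays numbered 1, after seeing their leukocyte and milk genes. Other alternatives were a pooled spread, quantile normalization, median centring, the mean of probe sets, a level filter, a replicate block and leaving out each array. Genes named besides the 10 members were 12 fixed ones, up to 4 called genes a list and comparison with the largest moderated statistic, and the 3 most correlated with each of 4 members. Same-numbered arrays deviated together in the second set (r = 0.61, 0.36 and 0.28) but not in the first (−0.26 to 0.12); arrays numbered 2 and 3 of that second set also correlated across numbers (0.24 and 0.35), so the pattern separates number 1 from the others; what a number stands for is not in the labels. Tables and figures were made with Python 3.11.15 (pandas 2.3.3, numpy 2.4.6, matplotlib 3.10.9).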

Additional observations from a re-analysis of the deposited data

How the results depend on the processing

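Counts among the 10 genes moved as follows. For PHA against DMSO (2), 1 was called with 1 spread pooled over all 15 arrays, 4 with median centring, 5 without genes below the median level, and 1 to 2 when single arrays were left out. For ICG (8), 4 were called with the pooled spread and 7 to 8 without single arrays. The mean of all probe sets called 6 with ICG, losing Fads1 and Acly, and median centring called 7, losing Acly. For PHA+ICG (1), 7 were called with the pooled spread, 2 with the mean of all probe sets, 3 with the replicate block, 3 without both second-set arrays numbered 1, and 0 to 3 without single arrays. For the PHA+ICG effect minus the PHA effect (1), the pooled spread gave 5, quantile normalization 4, median centring 2, the mean of probe sets 4, the replicate block 6, each set's own spread 4, the second set without the arrays numbered 1 also 4, and leaving out single arrays 1 to 5. The block changed no call of a member in the first set. PHA against ICG kept 7 to 9 calls, the comparison with the ICG effect and with the sum 0, and the DMSO groups 6 to 10. The cause was not tested, except that the pooled spread, a fit's own construction, gives the less variable first set larger errors and the second set smaller ones. Over all genes the pooled spread called 182 genes for PHA, 1255 for ICG and 2413 for PHA+ICG, against 1858, 4896 and 368; the block called 1202, 4149 and 1442. PHA+ICG minus PHA called 860 pooled and 958 blocked against 499. That comparison called 747 genes after quantile normalization, 499 after median centring and 632 with the mean of probe sets. It called 468 with each set's own spread and 720 without the pair numbered 1. PHA+ICG against DMSO called 482 genes with the mean of probe sets and 886 without that pair. Scaling moved the split of higher and lower calls: with PHA 572 and 1286 became 1188 and 938 after median centring and 897 and 1093 after quantile normalization, with ICG 2162 and 2734 became 3447 and 2134 after median centring, and with PHA+ICG 87 and 281 became 109 and 214 or 130 and 234. Of 1260 values of single members under these settings, 1158 kept direction and call, 27 lost a call and 50 gained one in the same direction, and 25 changed sign, none of them called in either fit. For the lists of other lipid genes, the pooled spread called 0 (synthesis and elongation), 0 (regulators), 3 (acyl-CoA use), 0 (oxidation) and 2 (sterol) with PHA and 2, 2, 3, 1 and 5 with ICG, and in the first set, where equal numbers do not mark pairs, the block called 1 regulator and 2 oxidation genes with PHA. Median centring called 14 genes of acyl-CoA use with ICG. Probe sets near the bottom of the scale limit what can be read for dim genes.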
